A study of Homo sapiens with 17 samples.

Results

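The mRNAs described here are those of 8 human genes of cell death and inflammasome signalling, NLRP1, PYCARD, CASP1, CASP4, GSDMD, CASP8, CASP10 and CFLAR, which were found by symbol among the 26457 RefSeq genes of an mRNA-seq table. The 8 genes were picked by name with earlier results from these libraries known, among them the higher NLRP1 level of mutp53-depleted cells after TNF-α. SW480 cells come from a human colon cancer and express mutant p53 R273H (mutp53). All 4 groups were SW480 cells with a stable doxycycline-inducible shRNA, kept in puromycin and given doxycycline, and the shRNA was directed against LacZ in control cells and against p53 in mutp53-depleted cells. Each kind of cell was harvested without TNF-α (0 h) or following a 16 h exposure to TNF-α (12.5 ng/ml), giving control 0 h, control 16 h, depleted 0 h and depleted 16 h, with 2 biological replicates (A and B) in each group. Whether a line was 1 clone is not given in the sources used here, and the line cannot be told apart from the shRNA it carries.

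Inflammasomes are protein platforms that form in the cytoplasm when a sensor such as NLRP1 or NLRP3 detects damage or a microbial activity. The adaptor encoded by PYCARD (ASC) links many sensors to caspase-1, which matures interleukin-1β and interleukin-18 and cuts gasdermin D, the pore-forming protein of pyroptosis. Caspase-4 detects cytosolic lipopolysaccharide directly and also cuts gasdermin D. Caspase-8 and caspase-10 start apoptosis downstream of death receptors, and the catalytically inactive relative c-FLIP, encoded by CFLAR, regulates them and is a known NF-κB target.

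Per kilobase of exon, GSDMD, PYCARD and CASP8 had the highest levels of the 8 mRNAs in all 4 groups, whereas CASP1 had at most 1 read in a library. Mutp53 depletion was accompanied by higher CASP4 at both times. By less than 2-fold, CASP8 was higher at 0 h, and CFLAR and GSDMD were lower at both times. At any fold, 52.5% of all genes tested had a limma adjusted p under 0.05 at 0 h, and 51.3% at 16 h. The genes around GSDMD moved the same way (median log2 differences −0.43 and −0.54), and the adjusted p of CFLAR depended on single libraries. NLRP1 had the largest difference at 16 h, from few reads. With TNF-α, CFLAR was 1.31-fold higher in control cells and 1.24-fold higher in mutp53-depleted cells, and no other member had a limma adjusted p under 0.05, whereas both edgeR tests called CASP10 lower in mutp53-depleted cells (adjusted p = 0.032 and 0.023).

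Values are normalized reads, which are the reads on the exons of a gene scaled by the authors to 1 common total per library. Reads on genes numbered 6108488 to 13809578 in a library, so that 1 read equals 0.6701 to 1.515 normalized reads. limma compared the groups on the scale log2(normalized reads + 1), over the 14800 genes that averaged 2.5 normalized reads or more, and the added 1 understates the change of weakly expressed genes. Calls needed an adjusted p (Benjamini-Hochberg over all genes tested) under 0.05 together with a 2-fold difference, and counts with the adjusted p alone are given too. Because the genes were named with results known, an adjusted p here only sets a difference beside the spread between replicates.

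Markers fixed for other cell types were weak. The 8 leukocyte markers summed to between 47.0 and 59.5 normalized reads in control 0 h cells, 66.9 to 83.1 in control 16 h cells, 70.4 to 72.7 in depleted 0 h cells and 111 to 115 at 16 h, while PTPRC and MS4A1 had 0 reads in all 8 libraries. The 5 fibroblast markers summed to between 28.5 and 39.4 in control cells and 56.2 to 177 in mutp53-depleted cells, with DCN at 0. The 7 epithelial markers summed to between 47855 and 63314 in control cells and 32772 to 43833 in mutp53-depleted cells, in which EPCAM and VIL1 were called lower at both times. After depletion CDX2 gave log2 differences of 0.12 at 0 h (limma adjusted p = 0.21) and 0.21 at 16 h (adjusted p = 0.036). The mean epithelial sum after TNF-α was 47886 against 61189 for control cells, and 33224 against 43786 after depletion. CDH1 (−2.51 and −2.15) and VIL1 (−2.1 and −2.21) were called lower with TNF-α in both kinds of cell. CDX2 was called only in control cells (−1.07, and −0.98 after depletion), and EPCAM gave −0.19 and 0.04. KRT20, a marker of differentiated colon epithelium, stayed at or below 8.64 normalized reads. Some single markers of other cell types were called. After depletion at 0 h, CD68 (log2 difference 1.09), LYZ (1.63), PDGFRB (3.53) and COL1A1 (1.51) were higher, and none of them was called at 16 h. With TNF-α, ITGAM was called higher in both kinds of cell (4.08 and 4.0). In control cells TNF-α also gave higher CD68 (1.08) and lower CD14 (−1.21), and in mutp53-depleted cells lower PDGFRB (−2.96). The part of these differences in the results below was not tested. In a bulk sample, fewer cells of a kind and less RNA per cell cannot be told apart.

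**Figure D1:**
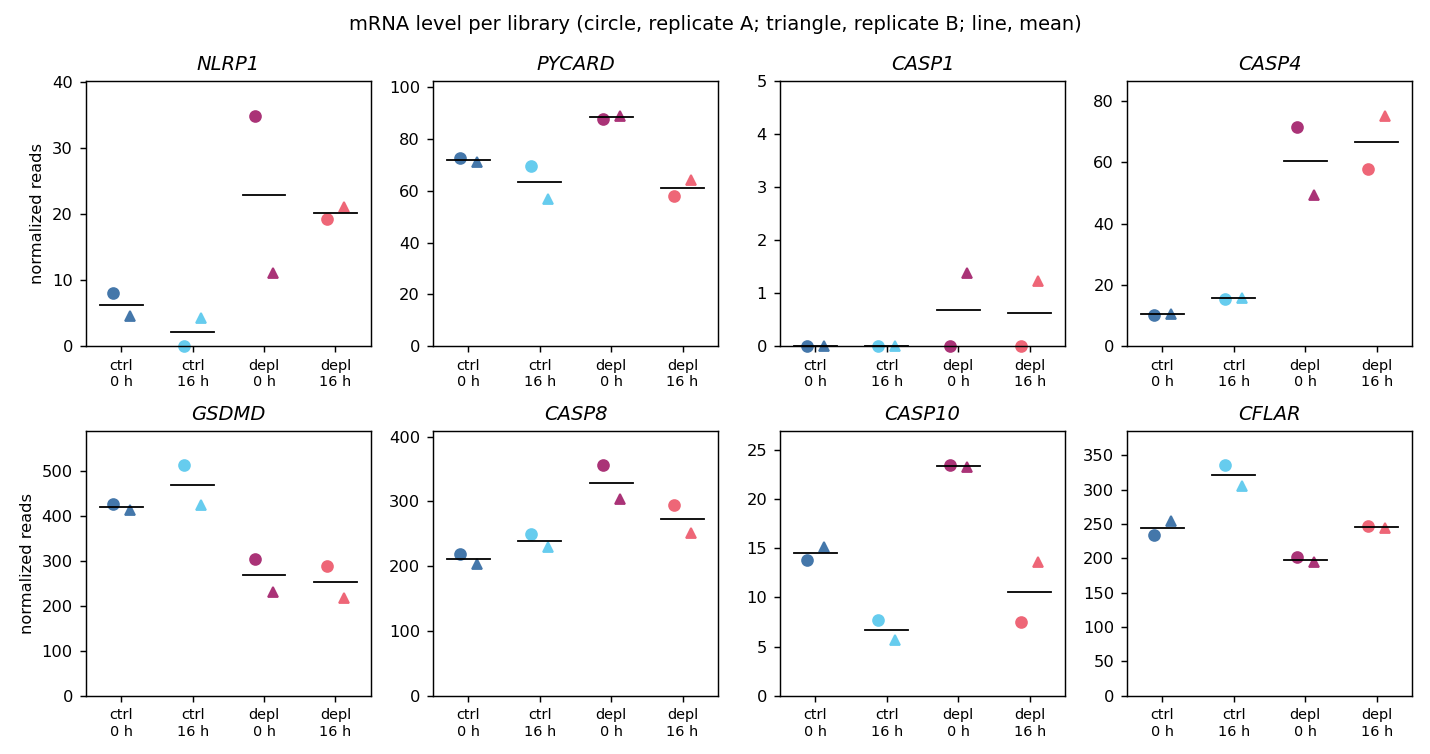
Normalized reads of each member (y axis, linear from 0, scaled per gene) in the 4 groups (x axis, 2 libraries each; circles are replicate A, triangles replicate B and lines the means). The CASP4 libraries of mutp53-depleted cells lie between 49.36 and 75.28, above the 10.16 to 15.65 of control cells, and CASP1 stays at 0 or 1 read.

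Per kilobase of exon, the order of the members in control 0 h cells was GSDMD (183 ± 4.49 normalized reads per kb, mean ± SD, n = 2), PYCARD (93.6 ± 1.26), CASP8 (68.9 ± 3.73), CFLAR (23.0 ± 1.34), CASP4 (7.82 ± 0.234), CASP10 (2.49 ± 0.166), NLRP1 (1.12 ± 0.435) and CASP1 (0). No neighbours in that order overlapped. In mutp53-depleted cells at 0 h the levels of GSDMD (117 ± 23.1), PYCARD (115 ± 1.23) and CASP8 (108 ± 12.2) overlapped, and CASP4 (45.6 ± 11.9) stood above CFLAR (18.7 ± 0.467) instead of below it. NLRP1 (4.10 ± 3.02) and CASP10 (4.03 ± 0.0171) overlapped there as well. After 16 h of TNF-α the order was again led by GSDMD, at 204 ± 27.5 for control cells and 111 ± 22.0 after depletion, where it overlapped CASP8 (89.1 ± 10.3).

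Of the 8 members, 7 passed the filter on low values and CASP1 did not. At 0 h, 1 of the 7 was called higher after depletion, CASP4, beside 5.89% of all genes tested, and none was called lower, beside 9.55%, with 2 lower members at an unadjusted limma p under 0.05 and 0 called lower by edgeR's quasi-likelihood and exact tests and by DESeq2. At 16 h, 2 of the 7 were called higher, CASP4 and NLRP1, beside 5.03% of all genes, and 0 lower, beside 10.2%, again with 2 at an unadjusted p under 0.05 and 0 by the other 3 tools. With the adjusted p alone, 4 members passed at 0 h, beside 52.5% of all genes, and 4 at 16 h, beside 51.3%. NLRP1 was known to rise at 16 h, so its call is a description only. The median log2 difference over the 7 was 0.64 at 0 h and 0.19 at 16 h, and over all genes 0.03 and −0.01. These shares are of a few genes, and no direction of the set is read from them.

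The upstream sequences of CASP4, the member with the largest called change at 0 h, and of its counterparts in the death receptor branch, CASP8 and CFLAR, were read from RefSeq (GRCh38.p14), where 4 of the 8 members matched an entry by symbol (also PYCARD). Each line gives the 250 bases before the RefSeq start of the gene, 5′ to 3′ on the gene's strand, in lower case with motif matches in capitals. That start need not be the start of the transcript whose exons were counted. The starts of CFLAR and CASP8 are 141877 bases apart in the deposited hg19 coordinates and 114747 bases apart in the RefSeq table, so at least 1 of these windows belongs to another start. They are chr11:104968575-104968824 on the minus strand for CASP4, chr2:201233213-201233462 on the plus strand for CASP8 and chr2:201118466-201118715 on the plus strand for CFLAR.
CASP4: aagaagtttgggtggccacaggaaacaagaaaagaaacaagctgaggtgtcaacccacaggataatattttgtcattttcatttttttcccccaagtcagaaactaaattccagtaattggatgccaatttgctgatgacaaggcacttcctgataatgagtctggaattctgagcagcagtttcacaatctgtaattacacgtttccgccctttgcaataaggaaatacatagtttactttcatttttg
CASP8: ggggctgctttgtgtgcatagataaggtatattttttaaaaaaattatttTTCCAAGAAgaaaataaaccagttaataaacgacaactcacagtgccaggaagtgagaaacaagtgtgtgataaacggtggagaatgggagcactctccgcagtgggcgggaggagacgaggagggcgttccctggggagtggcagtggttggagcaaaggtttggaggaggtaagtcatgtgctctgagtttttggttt
CFLAR: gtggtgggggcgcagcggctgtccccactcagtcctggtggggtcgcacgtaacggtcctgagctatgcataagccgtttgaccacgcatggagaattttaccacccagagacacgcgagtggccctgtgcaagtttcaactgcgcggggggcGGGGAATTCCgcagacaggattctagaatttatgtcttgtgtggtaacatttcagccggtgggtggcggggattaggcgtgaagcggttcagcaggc
Both strands were searched for the NF-κB (κB) consensus, for the GAS element bound by STAT factors (TTCNNNGAA), for the core of the ISRE bound by interferon regulatory factors (GAAA, any 2 bases and GAAA) and for the p53 consensus decamer. The CFLAR window held 1 κB match, GGGGAATTCC, starting 97 bases upstream, and 5.05% of 27305 promoters of the same length held such a match. The CASP8 window held 1 GAS match, TTCCAAGAA, starting 200 bases upstream, against 6.78% of promoters. The CASP4 and PYCARD windows held none of the 4 motifs. The ISRE core and the p53 decamer, which were in no member's window, were found in 3.07% and 5.53% of promoters. A match is a description of letters and does not show that a factor binds there.

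NLRP1, a sensor that activates caspase-1 through its CARD-bearing fragment, lies on chromosome 17 (hg19, 5417438 to 5487832, minus strand) and was, with CASP10, one of the weakest of the 7 members that passed the filter. Its normalized reads in replicates A and B were 7.98 and 4.54 in control 0 h cells, 0 and 4.27 in control 16 h cells, 34.9 and 10.97 in depleted 0 h cells, and 19.3 and 21.0 in depleted 16 h cells. All 4 depleted libraries were above all 4 control libraries. The counts behind these levels were 14 reads and 3 reads for the control groups at 0 h and 16 h, and 60 and 40 reads for the depleted groups. As a description, the log2 difference was 1.55 (SE 0.67) at 0 h and 3.20 (SE 0.67) at 16 h. With 3 reads in the control group at 16 h, the ratio of reads per gene-mapped read was 11.6 (95% interval for counting error alone 3.68 to 58.4). Left without control 16 h replicate A, the library at 0, the 16 h difference was 2.0, and without control 16 h replicate B it was 4.4. Of the 60 reads at 0 h, 52 were in replicate A, and the 0 h difference was 0.76, under 2-fold, without depleted 0 h replicate A and 2.35 without depleted 0 h replicate B. The 51 genes around NLRP1 had median log2 differences of −0.01 and −0.04, so the region around it hardly moved.

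PYCARD, the adaptor between sensor and caspase-1, lies on chromosome 16 (hg19, 31212807 to 31214097, minus strand). Its normalized reads were 72.6 and 71.2 in control 0 h cells, 69.6 and 56.9 in control 16 h cells, 87.8 and 89.1 in depleted 0 h cells, and 57.9 and 64.2 in depleted 16 h cells. The depleted libraries were above the control libraries at 0 h without overlap, and the groups overlapped at 16 h. The log2 difference was 0.30 (SE 0.20, 95% interval −0.12 to 0.71, limma adjusted p = 0.22) at 0 h and −0.05 (SE 0.20, interval −0.46 to 0.37, adjusted p = 0.86) at 16 h, so neither passed the test. With TNF-α the PYCARD difference was −0.19 in control cells (SE 0.20, adjusted p = 0.54) and −0.53 after depletion (SE 0.20, adjusted p = 0.055), which did not pass either. The adjusted p of the latter was 0.045 by edgeR's exact test, and by limma 0.046 with a filter at a mean of 10, and 0.047 and 0.045 without control 16 h replicate A and B.

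CASP1 and CASP4 lie on chromosome 11 (hg19, 104896237 to 104905884 and 104813594 to 104827422, both on the minus strand). CASP1, the inflammasome protease, had 0 reads in all 4 control libraries and 1 read in each of the depleted replicate B libraries, against 0 in the replicate A libraries. It could not be tested. For a single library, 0 reads allows a level of up to 3.36 normalized reads (control 0 h) and 3.58 (control 16 h), counting error only. These limits take each library alone and are wider than the limit over both libraries of a group. CASP1 shares sequence with CARD16, so any split of such reads between these symbols is uncertain; CARD16 had 0 reads in control cells and 3 reads in each depleted group. No fold is given for either gene.

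CASP4, which senses cytosolic lipopolysaccharide, gave 10.2 and 10.6 normalized reads in control 0 h cells, 15.5 and 15.7 in control 16 h cells, 71.7 and 49.4 in depleted 0 h cells, and 57.9 and 75.3 in depleted 16 h cells. The groups did not overlap at either time. CASP4 rose by a log2 value of 2.41 at 0 h (SE 0.30, limma adjusted p = 2.2e-06, 5.83-fold by the means) and of 2.02 at 16 h (SE 0.30, adjusted p = 1.8e-05, 4.28-fold by the means). The call was made under every alternative run, with a log2 range of 2.07 to 2.68 at 0 h and 1.78 to 2.20 at 16 h. The genes around CASP4 moved by a median of only 0.21 and 0.13. TNF-α gave log2 differences of 0.54 in control cells (SE 0.30, adjusted p = 0.21) and 0.15 in mutp53-depleted cells (SE 0.30, adjusted p = 0.77), and neither passed the test.

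GSDMD, the gasdermin that forms pores in the plasma membrane, lies on chromosome 8 (hg19, 144635557 to 144645231, plus strand). Its normalized reads were 428 and 414 in control 0 h cells, 513 and 424 in control 16 h cells, 306 and 230 in depleted 0 h cells, and 290 and 218 in depleted 16 h cells. Each depleted library was below every control library. GSDMD fell by 0.66 on the log2 scale at 0 h (SE 0.14, limma adjusted p = 0.00076) and by 0.89 at 16 h (SE 0.14, adjusted p = 4.4e-05), under 2-fold at both times. Genes around it moved in the same direction, with medians of −0.43 at 0 h and −0.54 at 16 h, and with the mean of both medians removed from the depleted libraries the GSDMD values were −0.17 (limma adjusted p = 0.35) and −0.40. Without control 16 h replicate B the 16 h value was −1.03, and without depleted 16 h replicate A it was −1.09, so it then reached the 2-fold limit. The TNF-α differences of GSDMD, 0.15 in control cells (SE 0.14, 95% interval −0.15 to 0.45, adjusted p = 0.5) and −0.08 after depletion (SE 0.14, interval −0.38 to 0.23, adjusted p = 0.75), did not pass.

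**Figure D2:**
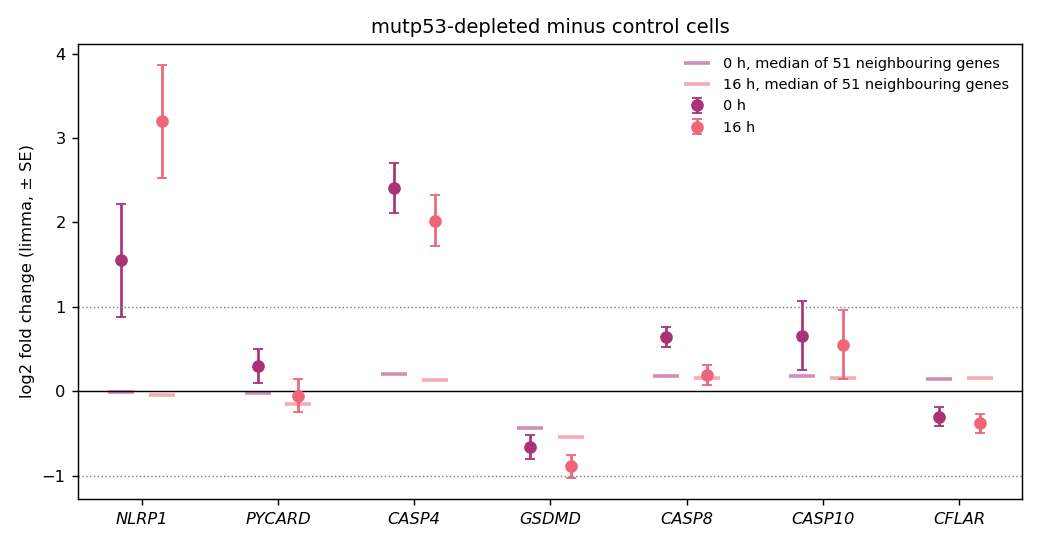
Log2 fold change after mutp53 depletion (y axis, limma, bars ± SE, 2 libraries per group) for the 7 members that passed the filter, at 0 h and 16 h; short dashes mark the median of the 51 neighbouring genes and dotted lines 2-fold. CASP4 and NLRP1 lie at 1.55 or above while their neighbours lie near 0, and the GSDMD neighbours lie at −0.43 and −0.54.

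The genes CFLAR, CASP10 and CASP8 lie on chromosome 2 (hg19, plus strand) within 172 kb. CFLAR spans 201980877 to 202037411, CASP10 spans 202047621 to 202086383 and CASP8 spans 202122754 to 202152434. Despite their common location, these genes differed in level and in direction. Their neighbourhood moved by medians of 0.14 to 0.18 at 0 h.

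CASP8, the main death receptor protease, had 219 and 203 normalized reads in control 0 h cells, 249 and 229 in control 16 h cells, 356 and 303 in depleted 0 h cells, and 295 and 251 in depleted 16 h cells. The groups did not overlap at either time. CASP8 was 0.64 higher on the log2 scale at 0 h (SE 0.12, limma adjusted p = 0.00026, 1.56-fold by the means), and the 16 h difference of 0.19 did not pass (SE 0.12, 95% interval −0.07 to 0.44, adjusted p = 0.22). The change of the depletion effect between the times was −0.45 (SE 0.17, adjusted p = 0.22), so the times were not shown to differ. The TNF-α differences of CASP8 were 0.18 in control cells (SE 0.12, adjusted p = 0.32) and −0.27 after depletion (SE 0.12, adjusted p = 0.11), and neither passed.

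CASP10, a relative of caspase-8 that is also recruited to death receptors, was weakly expressed, with 13.8 and 15.2 normalized reads in control 0 h cells, 7.73 and 5.69 in control 16 h cells, 23.5 and 23.3 in depleted 0 h cells, and 7.55 and 13.6 in depleted 16 h cells. In both kinds of cell the 16 h libraries were below the 0 h libraries without overlap. The TNF-α differences were −1.02 in control cells (SE 0.41, limma adjusted p = 0.081) and −1.13 in mutp53-depleted cells (SE 0.41, adjusted p = 0.052), neither of which passed. In mutp53-depleted cells the call was made by edgeR's quasi-likelihood test (−1.15, adjusted p = 0.032), by its exact test (−1.16, adjusted p = 0.023), and without control 16 h replicate A (−1.13), control 16 h replicate B (−1.13) or depleted 16 h replicate B (−1.51). Without depleted 16 h replicate A it was −0.74 (adjusted p = 0.31). The depletion differences of 0.66 (SE 0.41, adjusted p = 0.19) at 0 h and 0.55 (SE 0.41, adjusted p = 0.29) at 16 h did not pass.

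CFLAR, which encodes the caspase-8 regulator c-FLIP, had 234 and 255 normalized reads in control 0 h cells, 335 and 306 in control 16 h cells, 202 and 195 in depleted 0 h cells, and 247 and 244 in depleted 16 h cells. The 16 h libraries were above the 0 h libraries in both kinds of cell, and depleted libraries were below control libraries at both times. TNF-α gave log2 values of 0.39 in control cells (SE 0.11, limma adjusted p = 0.015) and 0.31 in mutp53-depleted cells (SE 0.11, adjusted p = 0.049). Depletion gave −0.30 at 0 h (SE 0.11, adjusted p = 0.031) and −0.38 at 16 h (SE 0.11, adjusted p = 0.0084), against neighbourhood medians of 0.14 and 0.16. All 4 differences were under 2-fold, and their adjusted p depended on single libraries. For TNF-α in control cells it was 0.098 without control 0 h replicate A and 0.096 without control 16 h replicate A. For TNF-α in mutp53-depleted cells it was between 0.13 and 0.2 without any one of the 4 depleted libraries, and 0.091 by DESeq2. For depletion at 0 h it was 0.17 without control 0 h replicate B, 0.077 and 0.14 without depleted 0 h replicate A and B, and 0.12 by DESeq2, and at 16 h it was 0.067 without control 16 h replicate A. The TNF-α effect in mutp53-depleted cells differed from that in control cells by −0.08 (SE 0.16, 95% interval −0.41 to 0.25, adjusted p = 0.89). The κB match printed above lies in the window of a RefSeq start that may not be that of the counted CFLAR transcript.

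**Figure D3:**
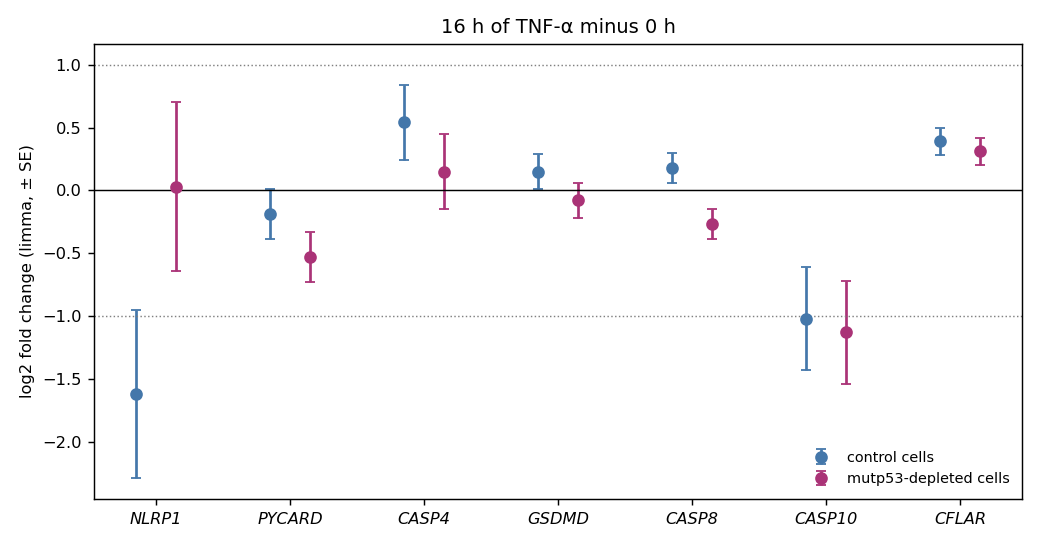
Log2 fold change after 16 h of TNF-α (y axis, limma, bars ± SE, 2 libraries per group) for the 7 members that passed the filter, in control and mutp53-depleted cells; dotted lines mark 2-fold. CFLAR lies at 0.39 and 0.31, and CASP10 at −1.02 and −1.13 with an SE of 0.41.

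With TNF-α, 0 of the 7 members were called in control cells, beside 2.97% of all genes higher and 4.27% lower. By limma, 3 members had an unadjusted p under 0.05, and edgeR's 2 tests and DESeq2 called 0. In mutp53-depleted cells 0 were called, beside 1.86% higher and 4.50% lower, with 4 members at an unadjusted p under 0.05, 1 called by each edgeR test and 0 by DESeq2. The adjusted p alone passed for 1 member in each kind of cell, beside 26.3% and 26.7% of all genes. For the difference between the responses of the 2 kinds of cell, 0 members were called, beside 0.655% of all genes higher and 2.21% lower, with 1 member at an unadjusted p under 0.05 and 0 by the quasi-likelihood test and DESeq2. NLRP1 had a TNF-α difference of −1.62 (SE 0.67) for control cells and 0.03 (SE 0.67) after depletion, given as a description. From 14 reads to 3, the ratio of reads in control cells was 0.251 (95% interval for counting error 0.0463 to 0.901). In control cells the log2 difference was −0.42 without control 16 h replicate A, the library at 0 reads, and −2.82 without control 16 h replicate B.

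Beyond the members, 57 genes of the same pathways were listed by role. Of these, 12 had 0 reads in all 8 libraries and 37 passed the filter. After depletion 7 were called higher and 3 lower at 0 h, beside 5.89% and 9.55% of all genes. At 16 h 5 were called higher and 3 lower, beside 5.03% and 10.2%. The medians were 0.22 at 0 h and −0.03 at 16 h, and for all genes 0.03 and −0.01. With NLRP3, IFI16 and RIPK3 set at the bounds given below, these medians were the same. IFI16 and RIPK3 passed the filter only through the groups in which they had reads, and GSDMA only through control cells. The counts therefore support no direction of the list.

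Of the 11 inflammasome sensors listed beside NLRP1, 8 did not pass the filter. Among these, AIM2, NLRC4, NLRP2, NLRP7 and NLRP10 had 0 reads in all libraries. Over the 8 libraries MEFV averaged 154 normalized reads, NLRP3 17.3 and NLRP1 12.9. NLRP3 had 0 and 0 normalized reads in control 0 h cells, 5.8 and 7.11 in control 16 h cells, 12.1 and 12.3 in depleted 0 h cells, and 47.8 and 53.1 in depleted 16 h cells. Both depletion and TNF-α thus moved it in the same direction, and the groups did not overlap. Against a floor of 3 reads per library for the group at 0, mean NLRP3 at 0 h was at least 3.63-fold higher in depleted cells. By the same floor, TNF-α in control cells gave a mean at least 1.92-fold higher. Such bounds leave out the counting error of the group with reads. At 16 h it rose 7.81-fold after depletion (limma adjusted p = 7e-05), and TNF-α raised it 4.13-fold in mutp53-depleted cells (adjusted p = 0.0043). The adjusted p of the latter was 0.056 without depleted 16 h replicate B and 0.052 with a pseudocount of 0.1.

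MEFV, which encodes the sensor pyrin, had 57.3 and 57.6 normalized reads in control 0 h cells, 210 and 218 in control 16 h cells, 137 and 106 in depleted 0 h cells, and 224 and 221 in depleted 16 h cells. The depleted libraries were above the control libraries at 0 h, and all 4 libraries lay close together at 16 h. MEFV rose after depletion by 1.05 at 0 h (SE 0.15, limma adjusted p = 1.5e-05), whereas the 16 h difference was 0.06 (SE 0.15, 95% interval −0.27 to 0.38, adjusted p = 0.78). Without depleted 0 h replicate A the 0 h value was 0.87, under 2-fold. IFI16, a sensor of nuclear DNA, had 0 reads in control cells. Against the floor, its mean after depletion was at least 1.30-fold higher at 0 h and at least 3.42-fold higher at 16 h. Depleted 0 h replicate B, at 2.74 normalized reads, lay below the control 0 h floor of 3.36, so the 0 h bound rests on replicate A. The 0 h call was lost without depleted 0 h replicate A.

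The gasdermins and membrane rupture genes did not move together. GSDMA, which encodes a skin gasdermin, fell from 58.8 and 51.5 normalized reads to 1.34 and 0 after depletion at 0 h, a ratio of reads of 0.016 (95% interval for counting error 0.00191 to 0.059). At 16 h GSDMA had 21.3 and 12.8 normalized reads in control cells and 4.19 and 0 in mutp53-depleted cells. As a description, the log2 difference was −2.94 (SE 0.67), and it lay between −4.66 and −1.67 over the alternatives. With TNF-α in control cells GSDMA gave −1.68 (SE 0.67, limma adjusted p = 0.076), which did not pass. That call was made in 7 of 18 alternatives. GSDMB had 21.1 and 28.8 normalized reads in control 0 h cells and 59.0 and 41.1 in depleted 0 h cells, a difference of 0.97 that was under 2-fold (SE 0.38, adjusted p = 0.039), and was called at 16 h (1.35, SE 0.38, adjusted p = 0.006). That call was lost without control 16 h replicate A (0.77) and without depleted 16 h replicate A (1.05, adjusted p = 0.071). NINJ1, which ruptures the plasma membrane after pore formation, rose by 1.42 with TNF-α in control cells (SE 0.09, adjusted p = 1.4e-09). In mutp53-depleted cells NINJ1 rose by 0.97 (SE 0.09, adjusted p = 2.9e-07), just under 2-fold. This value ran from 0.89 to 1.05 over the alternatives and was called in 6 of 18. Depletion gave −0.53 at 0 h and −0.97 at 16 h for NINJ1 (SE 0.09, adjusted p = 0.0001 and 7.4e-08), also under 2-fold. The 16 h value ran from −1.06 to −0.88 and was called in 2 of 18 alternatives.

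Cytokine substrates of caspase-1 were barely present, unlike its substrate GSDMD. IL1B had 2 reads and IL18 had 1 read over all 8 libraries. Neither can be tested at this depth. IL37, also listed as a cytokine substrate, averaged 2.04 normalized reads and did not pass the filter. CASP5 also had 0 reads in all libraries. CARD6, a CARD protein, was called higher after depletion at both times, with log2 values of 1.44 (SE 0.23, limma adjusted p = 4.7e-05) and 1.29 (SE 0.23, adjusted p = 0.00014).

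CASP9, the apoptosome caspase, had 95.3 ± 0.262, 134 ± 0.226, 124 ± 7.27 and 66.7 ± 8.82 normalized reads in control 0 h, control 16 h, depleted 0 h and depleted 16 h cells (SD, n = 2). TNF-α moved CASP9 by 0.48 in control cells (SE 0.17, adjusted p = 0.041) and by −0.89 in mutp53-depleted cells (SE 0.17, adjusted p = 0.00062), opposite directions, and the difference between these was −1.37 (SE 0.24, adjusted p = 0.0026). Its 16 h depletion difference was −1.0 (SE 0.17, adjusted p = 7.1e-05), which was just short of 2-fold.

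Of the death receptor and necroptosis genes, RIPK3, the necroptosis kinase, was called lower after depletion. RIPK3 had 18.9 and 10.6 normalized reads in control 0 h cells and 28.0 and 14.2 at 16 h, and 0 reads in all 4 depleted libraries. It was at least 4.81-fold lower at 0 h and at least 6.80-fold lower at 16 h. Its substrate MLKL, which forms the membrane pore of necroptosis, showed depletion differences of −0.09 (SE 0.14, limma adjusted p = 0.61) and −0.03 (SE 0.14, adjusted p = 0.86) but was 0.90 higher with TNF-α in control cells (SE 0.14, adjusted p = 7.1e-05) and 0.96 higher in mutp53-depleted cells (SE 0.14, adjusted p = 4.2e-05). FADD, the adaptor that binds caspase-8, had means of 781 ± 20.9 and 630 ± 49.0 normalized reads in control and mutp53-depleted cells at 0 h and of 979 ± 42.7 and 692 ± 16.6 at 16 h (SD, n = 2). RIPK1 had means between 340 ± 28.5 and 390 ± 40.1 in the 4 groups.

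After TNF-α, 9 of the 37 pathway genes were called higher in control cells and 0 lower, beside 2.97% and 4.27% of all genes. In mutp53-depleted cells 4 were called higher and 0 lower, beside 1.86% and 4.50%. In control cells, 5 of the list were lower at an unadjusted limma p under 0.05, and both edgeR tests and DESeq2 called 1 lower. In mutp53-depleted cells, 6 were lower at an unadjusted p under 0.05 and the other 3 tools called 0. The medians were 0.32 and 0.09, against −0.05 and −0.06 for all genes. The 5 listed inhibitors and deubiquitinases of TNF receptor death signalling gave 4 of the 9 calls in control cells and 3 of the 4 in mutp53-depleted cells. The list was chosen with results known, so no direction of the whole list is read from these counts. BIRC3, which encodes the ubiquitin ligase cIAP2 that keeps RIPK1 from forming a death complex with caspase-8, had 12.3 ± 6.14 normalized reads in control 0 h cells and 1270 ± 142 at 16 h, against 182 ± 9.04 and 2566 ± 35.6 in mutp53-depleted cells (SD, n = 2). BIRC3 thus rose with TNF-α by 6.65 (SE 0.20, adjusted p = 3.2e-14) and 3.81 (SE 0.20, adjusted p = 1e-10), and was higher after depletion at both times. Its 16 h depletion call (1.02) was lost without control 16 h replicate B (0.90) and by both edgeR tests (1.0, short of 2-fold).

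TNFAIP3, which encodes the deubiquitinase A20, had 10.4 ± 2.41 normalized reads in control 0 h cells and 770 ± 32.4 at 16 h, against 30.3 ± 19.6 and 497 ± 1.33 after depletion (SD, n = 2). It rose with TNF-α by 6.09 (SE 0.29, limma adjusted p = 2e-11) and 4.15 (SE 0.29, adjusted p = 5.2e-09). Its 0 h depletion call rested on replicate A: the value was 1.32 with both libraries and 0.63 without depleted 0 h replicate A. BIRC2, which encodes cIAP1, rose by 1.86 and 1.20 (adjusted p = 6e-11 and 2.8e-08). CYLD, a deubiquitinase of the same complex, and BID, the caspase-8 substrate that links to mitochondria, rose with TNF-α in control cells by 1.58 and 1.52, and gave 0.78 and 0.72 in mutp53-depleted cells.

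The test of the difference between the TNF-α responses called 8 of the 37 pathway genes lower and 0 higher, where 1 was higher at an unadjusted limma p under 0.05 and edgeR's quasi-likelihood test and DESeq2 called 0 higher. The 8 were BIRC3, TNFAIP3, BIRC2, CYLD, BID, NOD2, MEFV and CASP9, beside the 2.21% of all genes called lower. For the first 7 the 0 h level was higher after depletion, with log2 differences between 0.63 and 3.86. The difference between the responses equals the depletion difference at 16 h less that at 0 h. The 0 h values are therefore part of this contrast and no separate result. The median difference between the responses was −0.21 over the list and −0.03 over all genes. Of the 8 calls, 4 (BIRC3, TNFAIP3, BIRC2 and CYLD) came from the 5 listed inhibitors and deubiquitinases of TNF receptor death signalling. With the list chosen after results were known, these counts give no direction of the whole list.

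The NOD receptors, which sense peptidoglycan, differed. NOD2 rose after depletion at 0 h by 1.40 (SE 0.20, limma adjusted p = 1.3e-05) and with TNF-α in control cells by 1.35 (SE 0.20, adjusted p = 5.5e-05), but gave 0.14 and 0.09 for depletion at 16 h and for TNF-α in mutp53-depleted cells. NOD1 fell by 1.17 at 0 h and by 1.38 at 16 h (SE 0.20, adjusted p = 6.4e-05 and 1.1e-05). It lies in a region whose median moved by −0.77 and −0.76, and with their mean removed the values were −0.41 and −0.62. The same correction took BIRC3 and GSDMB below 2-fold at 16 h, at 0.80 and 0.98.

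**Figure D4:**
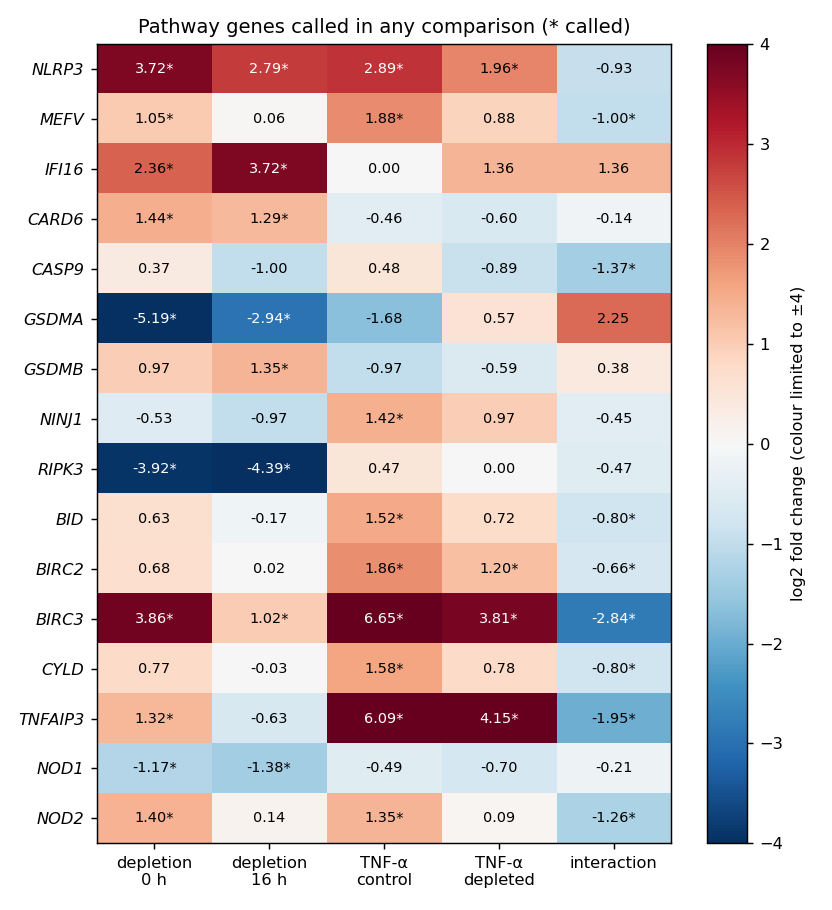
Log2 fold changes (numbers and colour, colour limited to ±4) of the 16 pathway genes called in any comparison (rows), for depletion at 0 h and 16 h, TNF-α in control and mutp53-depleted cells, and the interaction (columns); an asterisk marks a call. Values of NLRP3 at 0 h and in control cells with TNF-α, and of IFI16 and RIPK3, are against groups with 0 reads and are not bounds.

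For each member, the pair of genes with the most similar profile was found by the root-mean-square difference between log2 values of the 8 libraries after subtraction of each gene's mean, among 13123 genes that averaged 10 normalized reads or more. CASP4 was nearest to ZNF461 and MIR614 (0.15 each, where the median over all genes was 1.16). CASP8 was nearest to DUS2 (0.08) and ZFC3H1 (0.09), against a median of 0.36. CASP10 was nearest to GPR173 (0.15) and MAPT (0.16), against 0.69.
The remaining members gave pairs of the same kind. CFLAR was nearest to BCL9L (0.04) and ZNF319 (0.05), against a median of 0.40. PYCARD was nearest to SNHG20 (0.06) and TMLHE (0.07), against 0.35, and GSDMD to CARD9 (0.06) and YIPF3 (0.09), against 0.52. NLRP1, with its few reads, was nearest to VWF (0.46) and PRRX1 (0.63), against 1.52, which is the poorest match of the 7.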

How the data were processed

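Poly(A) RNA of SW480 cells was sequenced as strand-specific dUTP libraries (50-base single-end reads), 2 biological replicates in each of 4 groups. The authors deposited signal values, which are exon reads of RefSeq genes (STAR mapping, HOMER counting) times 1 factor per library that makes totals equal. The deposited table also holds log2 fold changes, p-values and adjusted p-values of the authors' 4 edgeR comparisons, which were not used. Its coordinates are hg19, whereas the Methods and the submitters' processing notes name hg38. ChIP-seq and GRO-seq were not analysed here.

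Reads were recovered by dividing by the value of 1 read, and 100% of values in every library were whole within 0.1 read. The study tested counts with edgeR, whereas normalized values were tested here as log2(value + 1) with limma 3.58.1 (R 4.3.3, trend = TRUE, 4 group means, 8 libraries, 14800 genes, two-sided). The interaction, called on the adjusted p alone, is the TNF-α response of mutp53-depleted cells less that of control cells. Group n is 2. The Methods call the replicates biological, but neither the Methods nor the labels say whether they were separate cultures. The p-values therefore measure the spread between these libraries, part of which may be technical. The 8 genes, the gene lists and the motifs were chosen with earlier results of these data known. Named genes are the 8 members, listed pathway genes called in any comparison, a fixed set of caspase, sensor, cytokine and necroptosis genes, and the 2 most similar genes per member. Some results that this rule gives are not reported here. Cell markers are colon epithelium, leukocyte and fibroblast lists.

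Alternatives were median-ratio scaling, a filter at a mean of 10 or none, a pseudocount of 0.1 or 5, a replicate block, edgeR 4.0.16 (exact and quasi-likelihood, TMM factors 0.97 to 1.03), DESeq2 1.42.0, removal of the median depletion difference of 51 neighbouring genes (mean of both times), and leaving out each library. A group with all libraries at 0 was given a floor of 3 reads per library for fold bounds. The bounds divide the observed mean of the other group by that floor, without the counting error of that mean. Reads of 1 to 3 have a 95% exact interval of the ratio of 2 counts, for counting error only. In simulated data for depletion at 0 h, 200 of 14800 genes were changed, all with a mean of 10 or more. By the adjusted p alone, limma found 100 of 100 genes changed 4-fold and 84 of 100 changed 2-fold, with 9 false calls. The 2-fold rule and changes of weaker genes were not simulated. Plots used Python 3.11.15, pandas 2.3.3 and matplotlib 3.10.9.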

Additional observations from a re-analysis of the deposited data

Results flagged for a closer look

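The TNF-α response differed between control and mutp53-depleted cells, by limma's interaction contrast, for 8 listed pathway genes, and for none of the 8 members. The response of mutp53-depleted cells less that of control cells was −2.84 on the log2 scale for BIRC3 (adjusted p = 1.5e-05), −1.95 for TNFAIP3 (adjusted p = 0.011), −1.37 for CASP9 (adjusted p = 0.0026) and −1.26 for NOD2 (adjusted p = 0.02). It was −1.0 for MEFV (adjusted p = 0.015), −0.8 for BID (adjusted p = 0.0022), −0.8 for CYLD (adjusted p = 0.0017) and −0.66 for BIRC2 (adjusted p = 0.0099).

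Groups of 2 libraries allow no check for a single outlying library. In this contrast the CASP9 values moved in opposite directions in the 2 kinds of cell, while those of BIRC3 and TNFAIP3 were higher after TNF-α in both. Left-out libraries ended several of these calls. NOD2 lost its call without control 0 h replicate B, control 16 h replicate B, depleted 0 h replicate A or B, or depleted 16 h replicate B (adjusted p between 0.053 and 0.13, differences between −1.38 and −1.0). BIRC2 lost its call without control 0 h replicate B, control 16 h replicate B, depleted 0 h replicate A or depleted 16 h replicate B (adjusted p between 0.054 and 0.07). MEFV lost its call without control 16 h replicate B, depleted 0 h replicate A or depleted 16 h replicate B (adjusted p between 0.063 and 0.12), and TNFAIP3 without control 0 h replicate A or either control 16 h library (adjusted p between 0.066 and 0.071). With no filter on low values the adjusted p was 0.06 for NOD2 and 0.053 for TNFAIP3.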

How the results depend on the processing

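Over the alternatives, 608 of 623 values of single members kept their side of the threshold (adjusted p and 2-fold, or the adjusted p alone for the interaction), and the other 15 newly passed it. All 15 concern NLRP1, CASP10 and GSDMD. Among pathway genes, 3207 of 3278 values kept their side, 39 newly passed and 32 no longer passed. No called value reversed. At 0 h, 2 members instead of 1 were called after depletion with a pseudocount of 5, by both edgeR tests and by DESeq2, the added gene being NLRP1 (1.18, 1.88, 1.84 and 1.83). Leaving out 1 library gave 1 to 2. For TNF-α in mutp53-depleted cells, 1 member instead of 0, CASP10, was called by edgeR's quasi-likelihood and exact tests, and leaving out 1 library gave 0 to 1, as it did in control cells (NLRP1, without control 16 h replicate B). With neighbouring genes removed, 5 instead of 8 pathway genes were called after depletion at 16 h, by construction of the removed median. Leaving out 1 library gave 4 to 7 pathway genes for TNF-α in mutp53-depleted cells, with 7 without depleted 0 h replicate A or depleted 16 h replicate A, and 4 to 8 for the interaction, with 4 without control 16 h replicate B. Causes of the other shifts were not tested. A model without the replicate block was primary. Whether the letters A and B pair libraries is not given in the sources used here. Deviations of same-letter libraries correlated at −0.0192 to 0.074 over 6 pairs of groups, which with 2 libraries per group cannot decide it. The letters did differ in depth, with 9572568 to 13809578 reads on genes in replicate A libraries and 6108488 to 7498590 in replicate B libraries. The replicate block moved no count of members. It took GSDMA with TNF-α in control cells (adjusted p = 0.032) and the NINJ1 interaction (adjusted p = 0.044) past the threshold. The GSDMA call was made in 7 of 18 alternatives and the NINJ1 call in 1 of 17. The exact test has no interaction. Depth limits CASP1, CARD16, IL1B and IL18, at 3 reads or fewer per group, and NLRP1, at 3 reads in control 16 h cells.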
